A study of Saccharomyces cerevisiae with 25 samples.

Results

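Budding yeast (Saccharomyces cerevisiae) carries a small set of genes for acid and alkaline phosphatases, and 6 of them, PHO5, PHO3, PHO11, PHO12, PHO8 and DIA3, were followed through 6 hours without phosphate. They were taken by name from the 6650 named genes of the table, and all 6 passed the filter on low values, as did 5298 genes in all. The strain is BY4741, a haploid laboratory strain, with the genotype labelled pho84pr-YFP, delta-vip1: YFP under the PHO84 promoter and, by the label, loss of VIP1, an inositol pyrophosphate kinase. All 25 libraries, that at 0 min included, carry this label, and a strain labelled as having VIP1 was not analysed here. The groups are 1 library from high phosphate medium (0 min) and, after a wash and a change to medium with no phosphate, 8 libraries early (15 to 120 min), 8 in the middle (135 to 240 min) and 8 late (255 to 360 min), at steps of 15 min. The wash and the loss of phosphate cannot be told apart here. All come from 1 culture as far as the labels say, so p-values measure the scatter of libraries about a smooth course and not the spread between cultures.

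When phosphate runs short, yeast secretes acid phosphatases into the cell wall space, where they release phosphate from organic compounds outside the cell. The transcription factor Pho4 drives these genes. In plentiful phosphate the cyclin and kinase pair Pho80 and Pho85 phosphorylates Pho4 and keeps it out of the nucleus, and in starvation the inhibitor Pho81 blocks that kinase. PHO5 encodes the main repressible acid phosphatase and is a textbook case of a promoter whose nucleosomes are removed on induction. PHO11 and PHO12 encode close relatives of Pho5 and lie near chromosome ends. PHO3 encodes an acid phosphatase that is made in plentiful phosphate and is repressed by thiamine. PHO8 encodes the alkaline phosphatase of the vacuole, and DIA3 encodes a protein similar to the acid phosphatases that has been linked to invasive growth.

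Expression was deposited as log2 RPM, where RPM scales each library to 1000000 reads. With the lowest value of each library taken as 10 reads, libraries held 413033 to 4162690 reads (median 1417344), and genes under 10 reads were blank. VIP1 was listed in 25 libraries at 9.69 to 55.7 RPM, from 10 to 105 reads. The sources used here do not give which part of the locus was removed, so a value for the whole gene does not settle the label. Of the marker genes that this strain background lacks, HIS3, LEU2 and MET17 appeared in 0 libraries and URA3 in 8, at 4.13 to 10.3 RPM. Because RPM is a share of a library, changes in a large group move every other gene. The 139 cytosolic ribosomal protein genes held 4.57% to 5.42% of reads late and 34% at 0 min, and the part of this shift in the changes below was not tested. In RNA from a whole culture, more expressing cells and more RNA per cell cannot be told apart either. The median log2 change of all genes late was 0.41. With every library centred on its median, all 6 phosphatase genes kept their direction and their call in the late comparison, and PHO5 stood at a log2 change of 3.41.

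The stretches upstream of the genes are shown first because they differ between the members. Pho4 is known to bind CACGTG and, in the PHO5 promoter, also CACGTT. Both motifs were searched on both strands over 600 bases before each start codon, and positions are counted back from that codon, so that -1 is the base just before it. PHO5 has CACGTT at -362 to -357 and CACGTG at -253 to -248. PHO11 has them at -416 to -411 and -283 to -278, and PHO12 at -418 to -413 and -283 to -278. PHO8 has CACGTG at -534 to -529 and CACGTT on the opposite strand at -380 to -375, and both fall inside the neighbouring gene CWC21, which ends 180 bases from PHO8. PHO3 and DIA3 have neither motif in these 600 bases, and late PHO3 fell while DIA3 rose. Part of these bases also belongs to a neighbouring gene, PHO5 for PHO3 and YDL022C-A for DIA3. PHO5 ends 446 bases from PHO3, and YDL022C-A overlaps the start of DIA3. Over 5999 protein-coding genes 7.23% had CACGTG in the 600 bases before the start codon, 18.8% had CACGTT and 1.62% had both. A match is a description of the letters and does not show binding. The sequences below are from the RefSeq copy of R64, the build named in the submitters' processing notes, read 5′ to 3′ on the strand of the gene, with the motifs in capitals (in PHO8 the second is AACGTG, the reverse complement of CACGTT).
PHO5 (chrII:431152-431391, minus strand, -440 to -201): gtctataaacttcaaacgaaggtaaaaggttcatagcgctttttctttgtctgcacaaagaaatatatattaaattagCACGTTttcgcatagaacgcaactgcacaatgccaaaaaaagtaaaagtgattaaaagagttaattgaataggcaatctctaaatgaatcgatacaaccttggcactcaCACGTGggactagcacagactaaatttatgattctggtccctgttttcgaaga
PHO11 (chrI:225020-225259, plus strand, -440 to -201): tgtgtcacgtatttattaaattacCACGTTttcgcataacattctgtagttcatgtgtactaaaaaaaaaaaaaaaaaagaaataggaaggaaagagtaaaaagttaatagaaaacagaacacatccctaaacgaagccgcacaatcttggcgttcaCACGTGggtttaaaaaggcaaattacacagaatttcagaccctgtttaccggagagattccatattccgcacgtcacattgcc
PHO3 (chrII:429302-429541, minus strand, -440 to -201): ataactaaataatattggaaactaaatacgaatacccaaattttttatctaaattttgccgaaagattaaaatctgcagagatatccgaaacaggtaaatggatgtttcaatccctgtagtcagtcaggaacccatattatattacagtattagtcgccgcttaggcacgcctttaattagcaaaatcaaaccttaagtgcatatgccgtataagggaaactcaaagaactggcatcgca
PHO8 (chrIV:1420611-1420810, minus strand, -560 to -361): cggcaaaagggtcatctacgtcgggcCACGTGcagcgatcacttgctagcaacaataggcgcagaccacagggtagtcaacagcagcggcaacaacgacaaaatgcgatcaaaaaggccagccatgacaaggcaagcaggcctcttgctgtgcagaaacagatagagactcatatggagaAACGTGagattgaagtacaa
In the windows of PHO11 and PHO12, 98.3% of aligned bases were identical, with 0 mismatches and 4 gap positions, so 1 of the pair is shown. In the 240 bases from -440 to -201, 3.68% of 6000 protein-coding genes had CACGTG, 8.37% had CACGTT and 0.45% had both. In the 200 bases from -560 to -361 these shares were 2.57%, 6.92% and 0.233%.

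**Figure D1:**
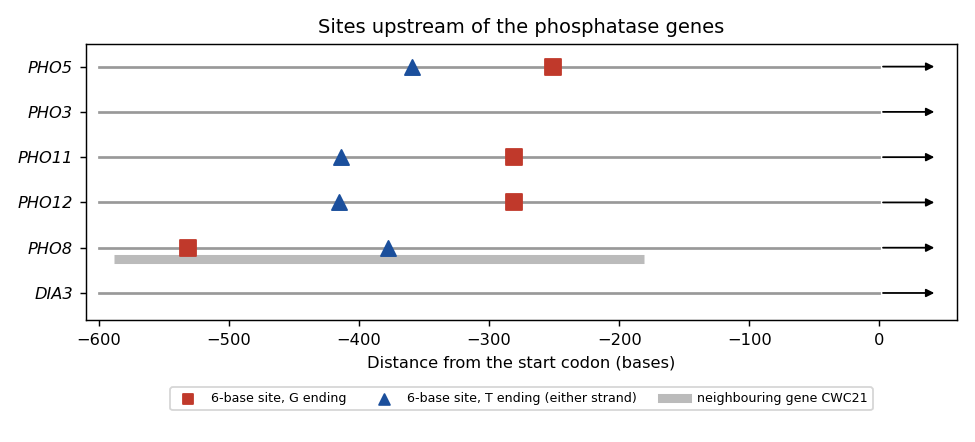
Position of CACGTG (red squares) and CACGTT on either strand (blue triangles) in the 600 bases before the start codon of each phosphatase gene, in bases from the start codon (arrow). PHO5, PHO11, PHO12 and PHO8 have 1 of each and PHO3 and DIA3 have 0, and the grey bar marks the part of CWC21 that lies upstream of PHO8.

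Similar coding sequences set how far the single values can be trusted. PHO5, PHO3, PHO11 and PHO12 each have a coding sequence of 1404 bases. PHO11 and PHO12 are identical at 1400 of them, 99.7%, and differ by 4 substitutions (A273G, A1060C, C1245T and A1268G, the PHO11 base first, counted from 1 at the first base of the start codon). PHO5 is 86.5% identical to PHO3 and 83.6% to PHO11. DIA3 is 65.3% identical to PHO5, and PHO8, an unrelated enzyme, gave 46.1% in a forced alignment. Of all stretches of 50 bases, 88.3% in PHO11 and 87.2% in PHO12 also occur elsewhere in the genome, against 12.3% in PHO5, 8.71% in PHO3 and 0 in PHO8 and DIA3. The longest run shared by PHO5 and PHO3 is 98 bases, bases 298 to 395 of the PHO5 coding sequence, and is printed here as an example of sequence that a short read cannot assign.
PHO5 and PHO3, shared run: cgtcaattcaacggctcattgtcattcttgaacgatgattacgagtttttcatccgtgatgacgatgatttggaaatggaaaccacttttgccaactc

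The deposited values carry the trace of this sharing. Recovered read numbers of PHO5, PHO3, PHO11 and PHO12 were fractional in nearly every library, being within 0.02 of a whole number in 0 or 1 of 25 libraries for each gene. The same count was 0 or 1 for each sum of 2 or 3 of these genes, while the sum of all 4 was whole in 23 of 25 libraries. PHO8 was whole in 22 of 25 libraries and DIA3 in 19 of the 19 that listed it. The sum of the 4 acid phosphatase genes is therefore given beside the single genes, and the separate levels of PHO11 and PHO12 are uncertain. The rule by which reads were divided is unknown.

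PHO5 (chromosome II, 429548 to 430951, R64) stayed near its starting level at first and then climbed. It stood at 308 RPM in high phosphate, lay between 268 and 822 RPM early (median 323), between 1083 and 3882 in the middle (median 2930) and between 3796 and 5266 late (median 4435). The early libraries stayed near the 0 min level up to 90 min. The one at 105 min stood at 417 RPM, and the one at 120 min stood above all the others of its window. The late and middle ranges touched, because the 255 min library lay just below those at 225 and 240 min, and the other 7 late libraries lay above every middle one. A call required a Benjamini-Hochberg adjusted p under 0.05 over all genes tested and a fitted log2 change of at least 1. Early against high phosphate, PHO5 was at a log2 change of 0.26 (SE 0.18) and was not called, with an adjusted p = 0.686 from limma. Late, it rose 14.3-fold over high phosphate, a log2 change of 3.83 (SE 0.18, adjusted p = 3.18e-16 from limma). Late against middle it was at 0.81 (SE 0.08, adjusted p = 6.48e-10 from limma), under the log2 change of 1 that a call required.

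**Figure D2:**
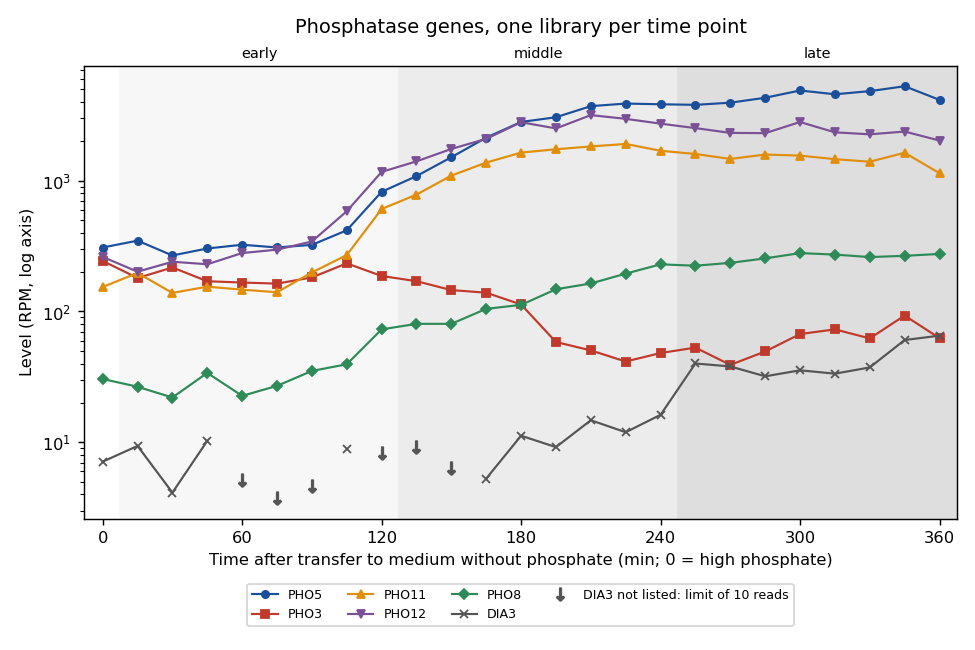
Level of each phosphatase gene in RPM (log axis) against time after transfer, with 1 library per time point and shaded early, middle and late windows. PHO5, PHO11, PHO12 and PHO8 climb from about 105 to 120 min, PHO3 falls, and DIA3 jumps between 240 and 255 min, with arrows for libraries where it was under 10 reads.

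PHO11 (chromosome I, 225460 to 226863) and PHO12 (chromosome VIII, 552099 to 553502) passed a log2 change of 2 before the other members. Their late levels lay within their middle levels. PHO11 stood at 154 RPM in high phosphate, at 139 to 607 RPM early (median 176), at 782 to 1907 in the middle (median 1665) and at 1140 to 1634 late (median 1510). PHO12 stood at 261 RPM in high phosphate, at 201 to 1166 early (median 288), at 1404 to 3168 in the middle (median 2616) and at 2025 to 2805 late (median 2329). For both genes all middle and late libraries were above all early ones, and the late range lay inside the middle range. The log2 change in the middle against high phosphate was 3.24 for PHO11 (SE 0.25, adjusted p = 5.84e-11 from limma). It was 3.17 for PHO12 (SE 0.21, adjusted p = 3.12e-12 from limma). Among 5230 genes ordered from the largest rise in the middle window, PHO11 ranked 3, PHO12 ranked 4 and PHO5 ranked 6. Late, PHO11 was called at 3.23 and PHO12 at 3.16, and late against middle both were at -0.01 (SE 0.11 and 0.09) with adjusted p = 0.928 and 0.949 from limma. With libraries centred on their medians these were -0.29 and -0.28 (adjusted p = 0.0282 and 0.0128 from limma), under the size of a call. PHO11 was highest at 225 min and PHO12 at 210 min, and at 360 min they had fallen by 0.74 and 0.65 on the log2 scale below those values. The ratio of PHO12 to PHO11 had a median of 1.62 over the 25 libraries, with a lowest value of 1.02 at 15 min, a next lowest of 1.44 at 195 min and a highest of 2.16 at 105 min. Given the 4 differing bases this ratio depends on how shared reads were divided, and the pair summed gave log2 changes of 0.44 early, 3.20 in the middle and 3.19 late.

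PHO3 (chromosome II, 427698 to 429101), whose product is the acid phosphatase of phosphate-rich medium, fell. It stood at 243 RPM in high phosphate, at 163 to 233 early (median 181), at 41.4 to 170 in the middle (median 85.8) and at 39.1 to 93.1 late (median 62.4). The high phosphate library was above the 24 others, no late library reached the early range, and the lowest level came at 270 min. PHO3 fell by 1.54 on the log2 scale in the middle against high phosphate (SE 0.30, adjusted p = 0.000366 from limma), a call that window means in place of the curve ended (-1.55, adjusted p = 0.0905 from limma). Late it fell by 2.05 (SE 0.30, adjusted p = 1.31e-06 from limma), to 0.241 of the fitted high phosphate level. PHO3 lies 446 bases from PHO5 on the same strand, and the 2 genes moved in opposite directions. Late, PHO5 had many more reads than PHO3, and some of the sequence is common to both. The part that shared reads have in the late PHO3 level was not tested. With PHO5 and PHO3 summed, the log2 change late was 3.02.

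The sum of the 4 acid phosphatase genes, which does not depend on how reads were divided among them, stood at 967 RPM in high phosphate, at 858 to 2781 early (median 921), at 3439 to 8797 in the middle (median 7354) and at 7370 to 9365 late (median 8340). Late, the 4 genes took 0.737% to 0.936% of all reads, against 0.0967% in high phosphate. The summed log2 change was 0.23 early, 2.74 in the middle and 3.09 late (SE 0.19, adjusted p = 7.13e-14 from limma for late). The mix within this sum shifted in 2 steps. PHO12 and PHO11 first gained, with 41.9% and 21.8% of the 4-gene reads at 120 min against 27.0% and 15.9% at 0 min. PHO5 then gained, with 56.2% at 360 min (Wilson 95% interval 55.3% to 57.1%), against 31.9% at 0 min (29.8% to 34%) and 27.7% at 105 min. PHO3 held 0.848% at 360 min (0.695% to 1.04%), against 25.2% at 0 min (23.3% to 27.2%). The intervals cover counting error only.

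**Figure D3:**
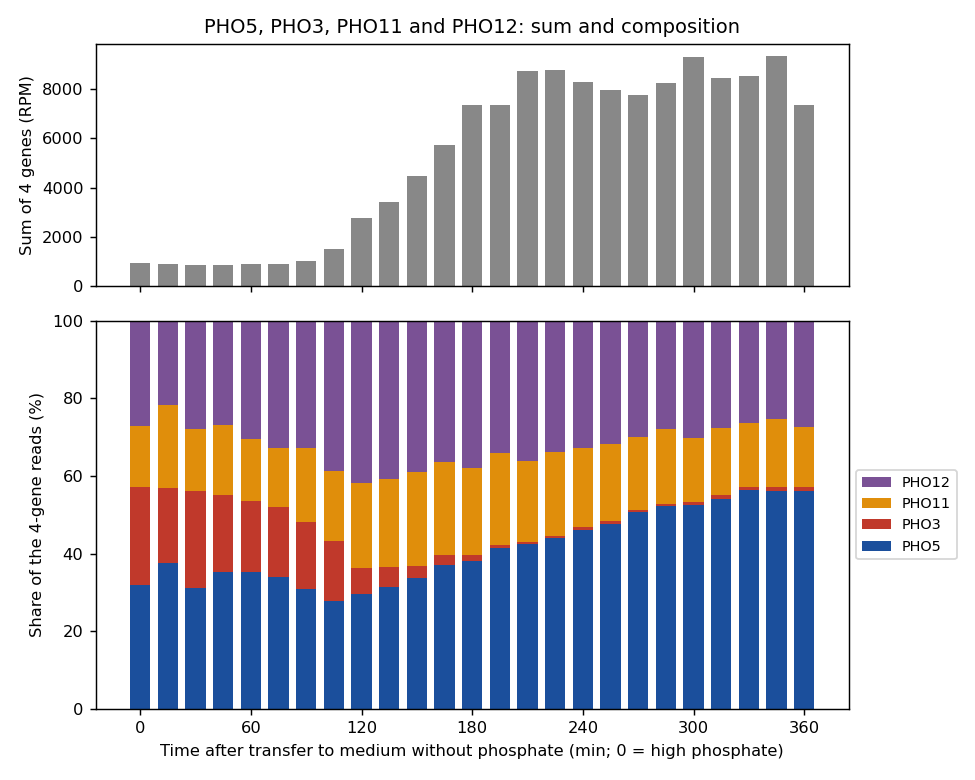
Sum of PHO5, PHO3, PHO11 and PHO12 in RPM (upper panel) and the share of each gene in that sum in percent (lower panel), by time after transfer, with 1 library per bar. The sum is 967 RPM at 0 min and 7370 to 9365 RPM late, while the share of PHO3 shrinks to under 1% and that of PHO5 grows to 56.2% at 360 min.

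PHO8 (chromosome IV, 1418550 to 1420250), the vacuolar alkaline phosphatase, passed a log2 change of 1 at the same time as PHO5 and PHO11 but rose more slowly from there. It stood at 30.5 RPM in high phosphate, at 22 to 73.0 early (median 30.5), at 80.4 to 229 in the middle (median 130) and at 224 to 279 late (median 263). Every middle library was above every early one, and of the late libraries only that at 255 min lay below the highest middle value. The log2 change was 2.09 in the middle (SE 0.21, adjusted p = 1.73e-08 from limma) and 3.08 late (SE 0.21, adjusted p = 8.31e-13 from limma). Late against middle it was 0.99 (SE 0.09, adjusted p = 2.88e-10 from limma), just under the size a call required. Leaving out single libraries took that value to between 0.87 and 1.09, and it was then called without the library at 15, 60, 75, 120, 195, 210, 225, 240, 255 or 270 min.

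DIA3 (chromosome IV, 408451 to 409857) was the rarest of the 6 and the last to rise. It had 7.11 RPM in high phosphate, from 14 reads, and was listed in 4 of 8 early libraries at 4.13 to 10.3 RPM and in 6 of 8 middle libraries at 5.29 to 16.2 RPM. It was listed in 8 of 8 late libraries at 32.0 to 65.3 RPM (median 37.7), and no library before 255 min reached that range. The step came at 255 min, with 40.0 RPM against 16.2 RPM at 240 min, and the last 2 libraries, with 60.5 and 65.3 RPM, were the highest. The value of 60.5 RPM, at 345 min, rests on 25 reads in the library with the lowest depth. Late against high phosphate the log2 change was 2.48 (SE 0.45, adjusted p = 6.88e-05 from limma), and late against middle it was 1.93 (SE 0.22, adjusted p = 5.69e-08 from limma). In the middle the change was 0.55 (SE 0.45) and was not called, with an adjusted p = 0.409. With blanks set to 5 reads, an alternative added after seeing the data, the late change was 2.46 and was called with an adjusted p = 0.00153 from limma.

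Set against all genes, none of the 6 was called early, where 0.115% of 5230 genes were called, 0.0765% higher and 0.0382% lower. These are 6 genes by limma, while 429 had an unadjusted p under 0.05. In the middle 4 of 6 were called higher, against 6.33% of all genes, and PHO3 was called lower, against 4.46%, with 10.8% called in all. Late, 5 of 6 were higher, against 21.1% of all genes, and PHO3 was lower, as were 6.85%, with 28% called in all. Late against early the counts were again 5 and 1, where 21.2% of 5298 genes were higher and 4.66% lower, 25.9% in all. PHO11 and PHO12, which share reads, are both among those called higher in the middle and late, so these calls are not independent. Late against middle 1 of 6 was higher, DIA3, where 5.38% were higher, and 0 were lower, where 2.87% were, 8.25% in all. All 6 were called for change over time, as were 42% of genes. The median log2 change of the 6 was 0.19 early, 2.56 in the middle and 3.12 late, and that of all genes was -0.07, 0.17 and 0.41. With libraries centred on their medians, 566 genes were higher and 616 lower late, in place of 1105 and 358. The centred counts were 453 and 480 late against early, in place of 1125 and 247. They were 224 and 335 in the middle, in place of 331 and 233, and 140 and 183 late against middle, in place of 285 and 152. In the late comparison the 6 phosphatase genes kept their calls.

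**Figure D4:**
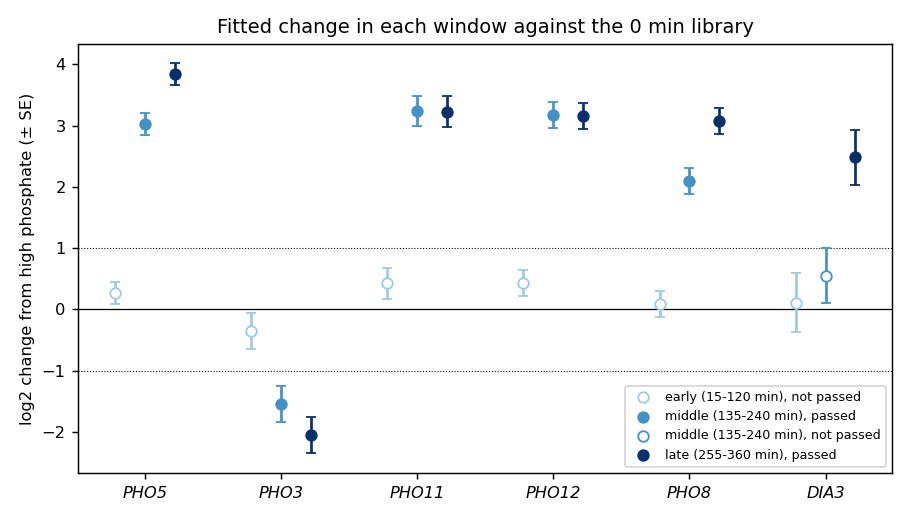
Fitted log2 change against the 0 min library for each phosphatase gene in the early, middle and late windows, with SE bars, filled points where the call was passed and dotted lines at the size a call required. PHO11 and PHO12 are level between middle and late, PHO5 and PHO8 are higher late, DIA3 is called only late among the 3 windows, and PHO3 is below 0.

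The order of rising was read from the midpoint on the log2 scale between the 0 min value and the late mean, as the first of 3 libraries in a row past it. PHO11 and PHO12 passed it at 120 min, PHO5 at 150 min, PHO8 at 165 min and DIA3 at 255 min, and PHO3 passed its midpoint downwards at 180 min. A midpoint depends on the late level, so a fixed size was read as well. A log2 change of 1 was first passed for 3 libraries in a row at 105 min by PHO12, at 120 min by PHO5, PHO11 and PHO8, and at 240 min by DIA3. A change of 2 was passed at 120 min by PHO12, at 135 min by PHO11, at 150 min by PHO5, at 195 min by PHO8 and at 255 min by DIA3. With 1 library per time point these times have no error of their own, and steps of 15 min limit them.

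Ratios to PHO5 within the same library tested whether the genes moved alike. Each of 5 ratios was compared late against early and late against middle by a two-sided exact permutation test of the mean log2 ratio, with adjustment over the 5, where the smallest p that 8 against 8 libraries can give is 0.000155. PHO12 stood at 0.531 of PHO5 late, against 0.930 in the middle, a log2 difference of -0.81 (exact p = 0.000155, adjusted 0.000389). PHO11 stood at 0.331 of PHO5 late, against 0.575 in the middle, a log2 difference of -0.80 with the same p-values. In neither did the late and middle ratios overlap. The ratios of PHO11 and PHO12 to PHO5 were thus lower late than in the middle, and their decline began before the late window. PHO11 stood at 0.739 of PHO5 at 120 min and at 0.441 at 240 min, and PHO12 at 1.42 and 0.711. Both ratios were lower late than early as well, at 0.331 against 0.556 for PHO11 and 0.531 against 0.954 for PHO12 (exact p = 0.000155 and 0.000466). PHO8 stood at 0.0580 of PHO5 late and at 0.0516 in the middle, a log2 difference of 0.17 (exact p = 0.129), which did not pass. Without the 135 min library that difference was 0.25 and passed (adjusted p = 0.0105, exact permutation test). Late against early, at 0.0580 against 0.0890, the PHO8 ratio was lower (exact p = 0.000155, adjusted 0.000259). DIA3 stood at 0.00931 of PHO5 late, against 0.00340 in the 6 middle libraries that listed it (exact p = 0.000666, adjusted 0.00111). The middle libraries at 135 and 150 min, with DIA3 under 10 reads, could not enter, so this middle mean covers listed values only. Late against early the DIA3 ratio was 0.00931 against 0.0234 in the 4 early libraries that listed it, a log2 difference of -1.33 (exact p = 0.00808). Early libraries with DIA3 under 10 reads could not enter, which leaves out its lowest early values. This test therefore cannot decide whether the DIA3 ratio fell from early to late. PHO3 stood at 0.0136 of PHO5 late and at 0.510 early, a log2 difference of -5.22 (exact p = 0.000155, adjusted 0.000259). Late against middle PHO3 was at an adjusted 0.0484 in the exact permutation test, and it lost that call when the library at 135, 150, 165, 180, 195, 255, 270, 285, 300, 315, 330 or 360 min was left out. Neighbouring time points come from 1 culture as far as the labels say and are not independent, so these p-values may be too small.

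**Figure D5:**
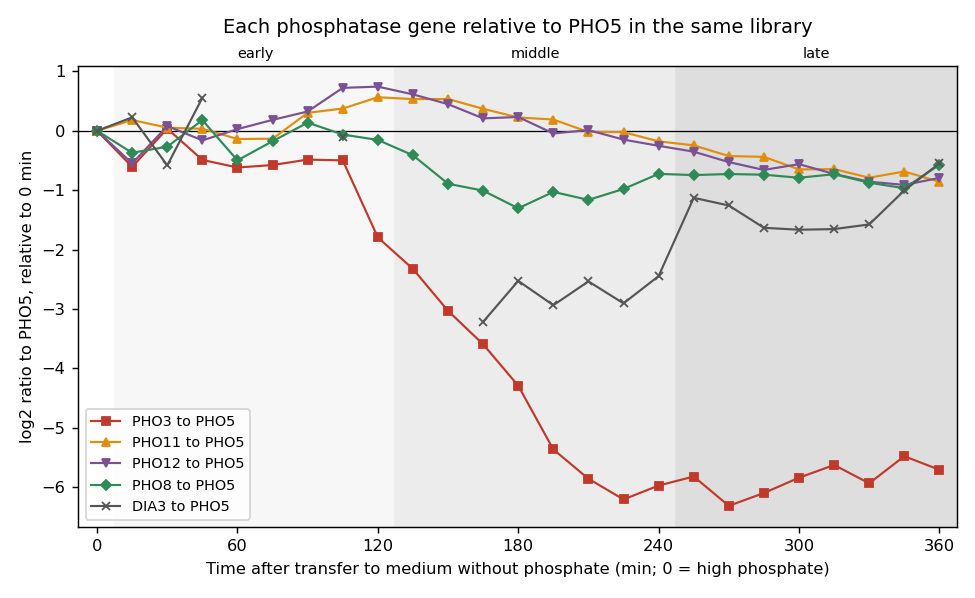
Log2 ratio of each phosphatase gene to PHO5 in the same library, set to 0 at 0 min, against time after transfer in min, with shaded early, middle and late windows. The ratios of PHO11 and PHO12 rise until about 120 min and then decline, that of PHO3 drops by over 5 units, and that of PHO8 is lowest at 180 min and higher again by 240 min.

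Levels of different genes were compared per length, as RPKM (RPM divided by the coding length in kb). Late, the geometric means were 3163 RPKM for PHO5, 1680 for PHO12, 1047 for PHO11, 152 for PHO8, 43.2 for PHO3 and 29.4 for DIA3. Each gene was above the next in 8 of 8 libraries, except PHO3 over DIA3 in 7 of 8, whose ranges of 27.8 to 66.3 and 22.7 to 46.4 RPKM overlapped. In the high phosphate library the order was PHO5 at 220 RPKM, PHO12 at 186, PHO3 at 173, PHO11 at 110, PHO8 at 17.9 and DIA3 at 5.06. Early, PHO5 was above PHO12 in 5 of 8 libraries and PHO11 above PHO3 in 4 of 8, so neither pair was apart beyond its spread. In the middle, PHO5 was above PHO12 in 6 of 8 libraries and PHO8 above PHO3 in 4 of 8. PHO3 thus ranked above PHO11 and PHO8 in high phosphate and below both late.

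Other genes of the pathway were followed in lists, whose counts stand beside 6.33% of all genes called higher in the middle and, late, 21.1% called higher and 6.85% lower. Of 14 other Pho4 targets tested with a 0 min value, 0 were called early, 12 were higher in the middle and 14 late, with a late median log2 change of 2.89. PHM8, a phosphatase of nucleotides and lysophosphatidic acid, rose by 4.12, PHO89, a phosphate transporter, by 3.79, PHM6, whose role is unknown, by 3.70, and VTC1, a subunit of the polyphosphate synthase, by 2.90. Among 8 signalling genes 4 were higher late and 0 lower. DDP1, a phosphatase of inositol pyrophosphates, was at 2.37, PHO81 at 2.08 and KCS1, an inositol pyrophosphate kinase, at 1.90, and PHO85, at 0.89, was not called. Of 22 listed thiamine genes 16 were tested, and late 4 were higher and 0 lower, shares near those of all genes. THI20 was at 1.63, THI74 at 1.34 and THI6 at 1.09, and THI4, at 0.91, was not called. PHO8 acts in the vacuole, and of 11 vacuolar hydrolase genes tested 10 were higher late, with a median log2 change of 1.82. The protease genes PRB1, PEP4 and PRC1 were at 2.77, 1.97 and 1.68, and AMS1, the vacuolar mannosidase, was at 4.0.

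The genes whose courses were most like those of the phosphatases were found by Pearson's r of log2 values over the 25 libraries among 4329 genes listed in all of them, with the 6 phosphatase genes left out. The libraries share a time axis and, as far as the labels say, a culture, so r is only a description. For PHO5 they were PHM6 (r = 0.996), PHO89 (0.993), HIS4 (0.990), a histidine biosynthesis gene, PHM8 (0.987) and GDE1 (0.984), a glycerophosphocholine phosphodiesterase gene. For PHO11 they were VTC4, VTC1, PHO86, VTC2 and VTC3, with r between 0.973 and 0.983. For PHO12 they were VTC4, PHO86, VTC1, VTC3 and SPL2, with r between 0.984 and 0.990. For PHO8 they were SDT1, PHM6, YNL217W, GDE1 and PHO89, with r between 0.985 and 0.988. PHO3 was most like SNU13, RKI1, ASP1, PRS1 and NOP56 (r between 0.960 and 0.962), genes of ribosome and RNP assembly, pentose and nucleotide synthesis and asparagine breakdown that were lower late. Between the members r was 0.990 for PHO11 and PHO12, which share reads, 0.985 for PHO5 and PHO8, which do not, 0.970 for PHO5 and PHO11 and -0.875 for PHO5 and PHO3.

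Of the other neighbours on the chromosomes, 5 had a late test, and RTK1 was called higher and IMD2 lower. Besides PHO3, PHO5 has PBY1, on the opposite strand at 1084 bases, at a late log2 change of 1.00 (SE 0.22) that fell just short of the size required. TIM12, 213 bases from PHO3, was at -0.47 (SE 0.21) and was not called. CWC21, whose coding sequence holds the PHO8 motifs, was at 0.86 (SE 0.23) and was not called. IMD2, an IMP dehydrogenase gene 893 bases beyond PHO12, fell by 4.44 (SE 0.20, adjusted p = 2.71e-16 from limma) while PHO12 rose. RTK1, a kinase gene 1244 bases from DIA3, rose by 1.2 (SE 0.21, adjusted p = 2.44e-05 from limma). YDL022C-A overlaps DIA3 by 50 bases on the same strand and was listed in 0 libraries.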

How the data were processed

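The deposited values are log2 of RPM per gene for 25 libraries of total RNA. The submitters' processing notes name Bowtie and R64. No source used here gives the counting program, its strand setting or what was done with reads that match several genes. The antilogs sum to 1000000 per library. The lowest value of each library was read as 10 reads, and 94.2% of values then came within 0.02 read of a whole number. Of 6701 rows 51 held no name, and blanks stayed missing.

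Genes listed in at least 13 libraries and at least 3 of each window were tested. R 4.3.3 and limma 3.58.1 were used, with a trend in the variance. Each gene had a term of its own for 0 min and, for the 24 later libraries, a natural cubic spline on time (4 degrees of freedom), which left 19 residual degrees of freedom. Contrasts compared window means of the fitted curve, and a joint test covered the spline terms. SE is from the fit, and p-values were adjusted over all genes tested. The scripts were tested on simulated data. Count tests were not run, since values under 10 reads are blank.

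The phosphatase genes and the gene lists were chosen with earlier results of these data known. Named genes are the members, in each list the 4 genes with the largest test statistic late against high phosphate, the 5 most correlated genes per member, chromosome neighbours and marker genes of the strain. Alternatives were splines with 3 or 6 degrees of freedom, median centring, no filter, window means, robust empirical Bayes, array weights, a minimum log2 change of 0.58, libraries left out and sums of similar genes. Blanks set to 5 reads and the sum of 4 genes were added after seeing the data. Figures were drawn with matplotlib 3.10.9 in Python 3.11.15.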

Additional observations from a re-analysis of the deposited data

Results flagged for a closer look

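In 4 of the 18 groups of 4 to 8 libraries examined, 1 library stood apart by Dixon's rule, which compares the gap to the nearest library with the whole range of the group on the log2 scale. Chance alone marks about 1 in 20 groups of independent libraries. The libraries here follow a course in time, so 4 of 18 cannot be set against that share. PHO5 at 120 min, with 822 RPM, was the highest early library (gap over range 0.605). PHO11 at 120 min, with 607 RPM, was likewise the highest early library (0.549). PHO11 at 360 min, with 1140 RPM, was the lowest late library (0.560). DIA3 at 30 min, with 4.13 RPM, was the lowest of the 4 early libraries that listed it (0.849). That value is the limit of 10 reads in its library, and early libraries under that limit were left out. For DIA3 the rule therefore cannot say that the library stands apart.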

How the results depend on the processing

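No paired analysis was possible because each library is its own time point, and the replicate numbers only give the order within a window and pair nothing. Of the values for single phosphatase genes and ratios under settings other than leaving out 1 library, 374 kept their direction and their side of the threshold, 15 reversed, 7 passed the threshold newly and 2 lost it. Without 15 and 30 min DIA3 had too few early values to be tested, so that 5 genes were left, all called late. Late against middle 1 of the 6 was called as reported, 3 with 3 degrees of freedom, 2 with 6 degrees of freedom, 3 with a minimum log2 change of 0.58, and 1 to 2 when single libraries were left out. The 2 that joined DIA3 were PHO8 and, with 3 degrees of freedom or the lower minimum, PHO5. No count of members was made with genes summed. PHO11 and PHO12 were near 0 late against middle and changed sign with 3 degrees of freedom (0.39 and 0.29), with 6 (0.033 and 0.027), with window means (0.019 and 0.0079) and without 15 and 30 min (0.049 and 0.035). With median centring they were at -0.29 and -0.28. They ran from -0.16 to 0.042 and from -0.13 to 0.049 with single libraries left out. Early, DIA3 was at -0.093 with 3 degrees of freedom and -0.72 with blanks set to 5 reads, and from -0.20 to 0.29 with single libraries left out. PHO8 was then at -0.044 to 0.18. Summed with PHO5, PHO3 stood at 0.025 early, 2.26 in the middle, 3.02 late, 2.996 late against early and 0.76 late against middle, since PHO5 reads outnumber those of PHO3. With window means PHO3 was at -1.55 in the middle and was not called (adjusted p = 0.0905 from limma). With medians PHO8 to PHO5 late against middle was at 0.25 and passed (adjusted p = 0.0325, exact permutation test). With PHO11 and PHO12 summed PHO3 to PHO5 late against middle was at an adjusted p = 0.0516 (exact permutation test). The ratios that passed late against middle numbered 4 as reported and 3 to 4 with single libraries left out.

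Over all genes, early calls numbered 6 as reported, 12 with 6 degrees of freedom, with array weights or without 15 and 30 min, 1 with window means, 10 with a minimum of 0.58 and 4 to 12 with single libraries left out. Middle calls numbered 564, or 114 with window means, 1151 with a minimum of 0.58 and 400 to 695 with single libraries left out. With a minimum of 0.58, calls numbered 2416 late, 2746 late against early, 1245 late against middle and 3771 for change over time, which stood at 1351 with window means. Depth limits DIA3 most, since it had 10 to 98 reads where listed. The 0 min level rests on 1 library.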

Other observations

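Phosphatases of small molecules inside the cell were described by a list of 16 tested genes, of which 8 were higher late and 0 lower, with a median log2 change of 1.05, beside 21.1% of all genes higher and 6.85% lower. SDT1, a nucleotidase gene whose course was the nearest to that of PHO8, was at 2.30. GPP2, a glycerol phosphate phosphatase gene listed as HOR2, was at 2.26. Of 18 genes for nucleosome factors studied at the PHO5 promoter, 0 were called late in either direction by limma. SNF2, the ATPase of the SWI/SNF complex, was at 0.88, SNF5 of the same complex at 0.75, the deacetylase gene RPD3 at 0.52 and the acetyltransferase gene GCN5 at 0.51. The genes named are those of the list with the largest test statistic. The median log2 change of all 18 was 0.23 late, with a range from -0.14 to 0.88. The median of all genes was 0.41 in that comparison, so the list as a whole lay below it.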
